A study of Drosophila melanogaster with 4 samples.

Results

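Hsp90, a chaperone that helps many client proteins to fold and mature, was found at 1301 sites along the euchromatic X chromosome of DRSC-S2 cells, a cultured line of Drosophila melanogaster. A site here is a region of dm3 coordinates in which Hsp90 peaks of both replicates overlapped by at least 1 bp and were merged, and whose end lay at or before position 20422827, which leaves out the 2 Mb nearest the centromere. All listed peaks were used, with no limit set on the authors' false discovery rate. For X peaks of replicate 1 this rate had a median of 11.71% and quartiles of 9.965 and 11.84%. In replicate 2 the median was 4.77% and the quartiles were 2.19 and 9%. The X regions made up 14.4% of the 9015 shared regions of the series. The 4 large autosomal arms, each also without its last 2 Mb before the centromere, held 6853 (2L 1560, 2R 1705, 3L 1720 and 3R 1868). A further 56 shared regions lay on X beyond the edge. The last region inside the edge, from 20390262 to 20391229, had folds over input of 4.07 and 4.90 in replicates 1 and 2, and the first one outside it, from 20527051 to 20527696, had 6.60 and 5.08.

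The series holds 2 biological replicates of an Hsp90 immunoprecipitation, made with an antibody that is not sold, and 2 replicates of input chromatin with no antibody, all from growing DRSC-S2 cells fixed with formaldehyde. Replicate 1 had 13383895 unique ChIP tags and replicate 2 had 17401846, set by the authors' peak caller against 10514709 and 15814871 unique input tags. There is 1 condition and no mutant, drug or second cell line. By its title, the series concerns Hsp90 at paused promoters.

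As background, Hsp90 works with co-chaperones and ATP on proteins that include kinases, receptors and chromatin regulators, and part of it is found on chromatin in flies. Many Drosophila genes hold RNA polymerase II paused shortly after the start site, from where it can be released quickly. S2 lines have a male-type dosage compensation system, in which the MSL complex binds across active X-linked genes and raises their transcription. The number of X copies in the cells was not measured here. No gene positions of the dm3 build were used, so the regions are named by position and none is assigned to a promoter or gene.

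Hsp90 regions on X were short, with a small set of broad ones. The median length was 791 bp (interquartile range 579 to 1181 bp), the shortest spanned 273 bp and the longest 15958 bp. Of the 1301 regions, 125 (9.61%) were up to 500 bp long, 747 (57.4%) were over 500 and up to 1000 bp, and 318 (24.4%) were over 1000 and up to 2000 bp. Another 96 (7.38%) were over 2000 and up to 5000 bp, and 15 (1.15%) were longer. Together they covered 1.39 Mb, or 6.78% of the X sequence examined. The broad regions took a share of the tags well above their number: the 15 over 5000 bp held 8.57% of the tags of all X regions in replicate 1 and 11.02% in replicate 2, while the 125 shortest held 3.25% in each.

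Where each replicate listed a single peak, the summits mostly lay at nearly the same base. In 1137 of the 1301 regions (87.4%) each replicate listed a single peak, and in these the median distance between the 2 summits was 23 bp (quartiles 9 and 48 bp). Summits were within 100 bp of each other in 977 of them (85.9%, exact 95% binomial interval 83.8 to 87.9%), and the largest distance was 2456 bp. Binomial intervals given here treat regions, gaps or peaks as independent draws, which neighbours along X need not be. They do not measure the spread between replicates. Poisson intervals, given below for tag counts, cover counting error only, since the libraries were amplified by PCR and no molecular identifiers are mentioned.

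The ChIP signal of a site was measured as tag density: the tags of its peaks per kb of peak and per 1000000 unique ChIP tags of the library. No input was taken off, so the density includes local background and is not an amount of Hsp90. The median density on X was 18.7 in replicate 1 (interquartile range 16.0 to 22.8, range 12.1 to 71.1) and 20.2 in replicate 2 (17.4 to 24.6, range 12.1 to 61.5). Most sites therefore sat close to the lowest density at which peaks were listed, and a thin tail reached several times higher. A median region held 191 tags in replicate 1 (exact 95% Poisson interval 165 to 220) and 237 in replicate 2 (208 to 269). The lowest counts were 53 tags (39.7 to 69.3) and 77 tags (60.8 to 96.2). The authors' fold over input, taken from the best-scoring peak of a region, had medians of 5.21 (4.15 to 6.52) and 5.44 (4.37 to 6.69).

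The order of the sites by density was largely shared between the replicates, with a Spearman rho of 0.84 across the 1301 regions, and of 0.79 for the fold. These are descriptions across regions of 2 libraries, which are not independent points. The log2 ratio of the densities, replicate 2 over replicate 1, was 0.10 at the median with an SD of 0.20. It stayed under a 1.5-fold difference in 1280 regions (98.4%), and among the rest 17 were denser in replicate 2 and 4 in replicate 1. Density uses each replicate's own peak length, so it can be alike where the replicates listed unlike lengths. The tags, scaled to library depth, differed more, with an SD of 0.44 for their log2 ratio. In 45 regions (3.46%) they were over 2-fold apart, 22 higher in replicate 2 and 23 in replicate 1.

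**Figure D1:**
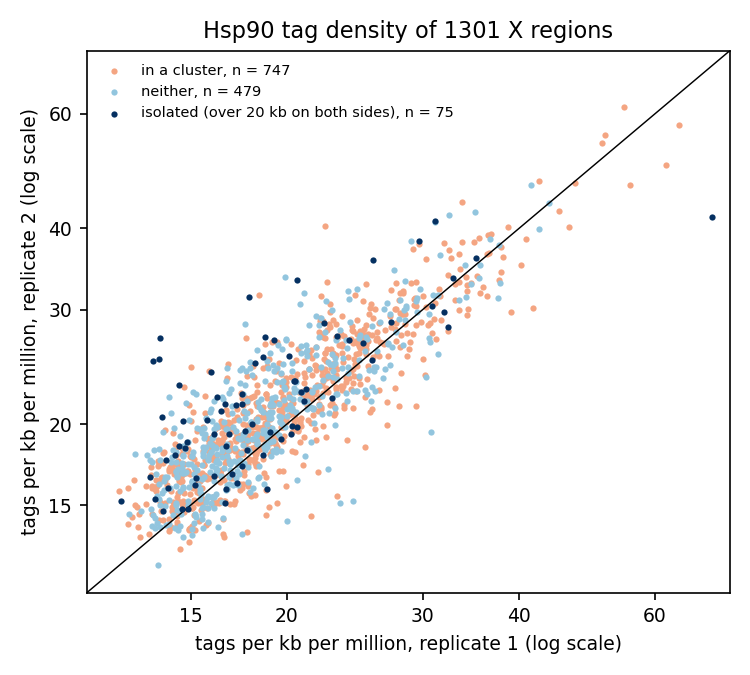
Tag density of the 1301 X regions in replicate 1 (x axis) and replicate 2 (y axis), both in tags per kb per 1000000 unique tags on log scales, with the line of equal values. Points are coloured by whether a region lies in a cluster (747), more than 20 kb from any other region on both sides (75), or neither (479), and the isolated region at 71.1 in replicate 1 and 41.7 in replicate 2 lies apart at the right.

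Of the 10 Hsp90 regions with the highest mean percentile of density over both replicates, 9 lay in clusters of regions, where 57.4% of all X regions lay, and they fell in 7 windows of 500 kb. Their median length was 928.5 bp, against 791 bp over all X regions, and 6 of them were at most 1000 bp long. Several of them were near neighbours.

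First among the 10 was a 941 bp region from 7498270 to 7499210, with 718 tags in replicate 1 and 944 in replicate 2. Its densities were 64.4 and 57.6, and its folds over input were 16.29 and 13.10. A 1283 bp neighbour from 7501825 to 7503107 held 724 and 1026 tags, at densities of 55.7 and 46.6. The 1569 bp region from 7520474 to 7522042 held 1149 and 1530 tags, and its density was 54.7 in replicate 1 and 61.5 in replicate 2, the highest of any X region in replicate 2. These 3 sites lay in adjoining clusters, each with more than 2 times the median density of X in both replicates. All 3 had a score of 3100 in both lists, which 4 X regions shared, so the score does not order them.

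A pair of narrow sites further towards the tip of X had nearly the largest folds of the lists. The 684 bp region from 2019417 to 2020100 held 481 and 596 tags, with densities of 62.1 and 50.1 and folds of 17.76 and 13.91. The 584 bp region from 2034443 to 2035026 held 370 and 498 tags, with densities of 51.3 and 54.1 and folds of 17.27 and 13.91. Their summits in the replicates lay 2 bp apart in each case. A fold of 13.91 is the highest in the whole list of replicate 2, where 3 peaks had it, and these were 2 of them.

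Other compact sites of this rank stood further along X. The 916 bp region from 10709361 to 10710276 held 634 and 777 tags, with densities of 51.7 and 55.7 and folds of 15.96 and 13.64. The 848 bp region from 3266656 to 3267503 held 482 and 636 tags, at densities of 42.5 and 47.3 and folds of 13.19 and 11.95. One of the 10 stood alone: the 550 bp region from 15957416 to 15957965 had its nearest neighbours 57323 bp before and 24957 bp after it. It held 417 tags in replicate 1 and 399 in replicate 2, a density of 71.1 against 41.7, and folds of 17.84 and 13.82. Its density in replicate 1 was the highest on X, and its log2 ratio of replicate 2 over replicate 1, -0.77, was the lowest of all X regions, with summits 1 bp apart. Among the 5 regions of highest fold were this one, the pair at 2019417 and 2034443, and the sites at 10709361 and 7498270.

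The remaining 2 of the 10 were broad and dense, with lower folds than the rest of the 10. The longest region on X, 15958 bp from 12558908 to 12574865, held 9052 tags in replicate 1, which listed it as 6 peaks, and 11810 in replicate 2, which listed it as 1 peak. Its densities were 45.0 and 42.5, yet its folds were 3.94 and 3.75, below the median of X. A 4775 bp region from 12643936 to 12648710 held 2934 and 3835 tags, with densities of 47.3 and 46.9. Its folds were 4.74, below the median of X in replicate 1, and 6.42, above the median of X in replicate 2.

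Among the other long regions, density and fold also parted. The 11539 bp region from 8781368 to 8792906 held 5141 and 6610 tags, with densities of 34.7 and 32.9 and folds of 6.59 and 5.30. The 9138 bp region from 11467214 to 11476351 held 2822 and 2980 tags, with densities of 23.1 and 25.3 and folds of 8.10 and 6.18. Both were well above the median length, but only the first was also far above the median density. The 6904 bp region from 13177816 to 13184719 had densities of 23.1 and 22.8 and folds of 8.45 and 6.76, and the 6216 bp region from 1371873 to 1378088 had densities of 36.7 and 38.5 and folds of 6.74 and 4.99. The 15 regions over 5000 bp were spread over 13 windows, and 7 of them lay in clusters.

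Across length classes, density climbed with length while the fold levelled off. Regions up to 500 bp had median densities of 16.4 in replicate 1 and 17.3 in replicate 2, those up to 1000 bp had 17.7 and 19.4, and those up to 2000 bp had 20.9 and 22.0. The class up to 5000 bp had 23.4 and 24.5, and the 15 longest had 29.6 and 30.1. Median folds in the same 5 classes were 4.64, 5.05, 5.70, 5.945 and 5.67 in replicate 1, and 4.92, 5.26, 5.845, 5.98 and 4.99 in replicate 2. Over all X regions, length had a Spearman rho of 0.43 with density in replicate 1 and 0.39 in replicate 2, against 0.23 and 0.16 with the fold. Length, density and fold come from the same tags, and a peak caller sets the length by where the tags end, so these values describe the lists.

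Dividing the density of a region by the fold of its best-scoring peak gives a ratio, named background index here. The density is taken over all peaks of the region and the fold from 1 of them. The index thus depends on how a region is split into peaks, and it is not a measured background. How far it follows the local background was not tested. Its median on X was 3.65 in replicate 1 and 3.79 in replicate 2. In 12 regions (0.922%) the index was over 2 times that median in both replicates. They were long, from 1607 to 15958 bp with a median of 3548 bp, and dense, with median densities of 32.9 and 31.2. Their folds were low, with medians of 3.215 and 3.10, and none exceeded the median fold of X in either replicate. The highest index belonged to a 4650 bp region from 10419815 to 10424464, at 15.2 and 13.2, with folds of 2.34 and 2.41 and densities of 35.5 and 31.8. That region held 304 tags in replicate 1 and 2570 in replicate 2, so at like densities replicate 1 listed a much shorter part of it. A 1607 bp region from 5285517 to 5287123 followed with 12.4 in both replicates, and the longest region of X had 11.4 and 11.3. The 12 regions were picked by these values, so the contrast with the rest is a description. Input tags were not analysed here, and whether these sites hold extra copies or repeated sequence was not tested.

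**Figure D2:**
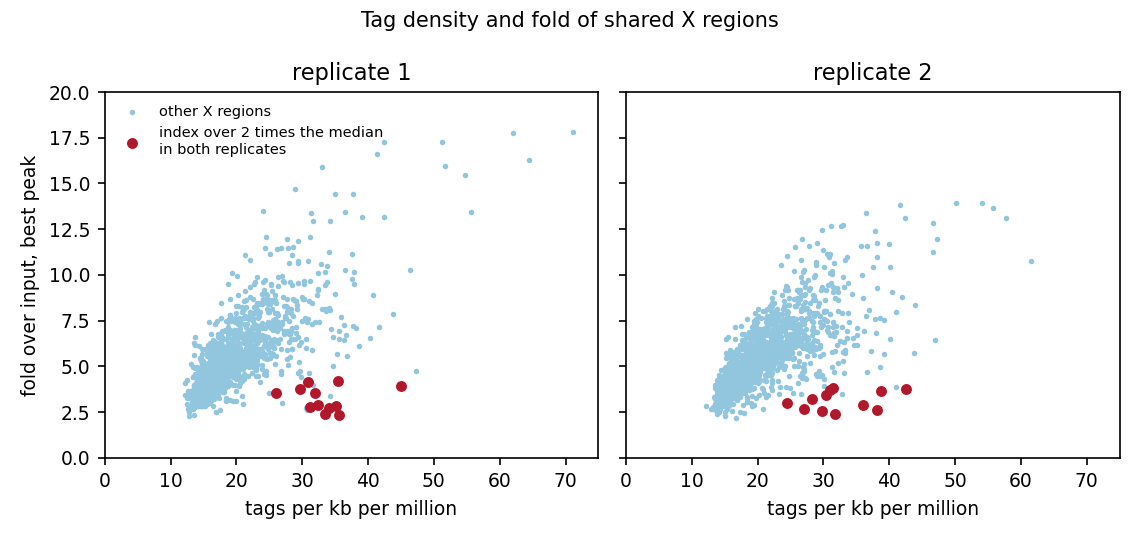
Fold over input of the best-scoring peak (y axis) against tag density in tags per kb per 1000000 unique tags (x axis) for the 1301 X regions, in replicate 1 (left) and replicate 2 (right). The 12 regions whose index is over 2 times the median in both replicates are marked, and they lie below the main cloud, with folds up to 4.19 and 3.83.

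The 5 sites with the largest ratio of densities between the replicates were all denser in replicate 2. Of these 5, 4 had no other X region within 20 kb on either side, a property of 75 regions of X (5.76%). Whether the other sites that differed stood as far from others was not counted. The 496 bp region from 15547498 to 15547993 held 91 tags in replicate 1 and 177 in replicate 2, with densities of 13.7 and 27.1 and a log2 ratio of 0.98. From 5487825 to 5488340 there were 91 and 213 tags, with densities of 13.4 and 25.0, and the region just before it, from 5454452 to 5455074, held 95 and 273 tags, with densities of 13.7 and 25.2. The 2 neighbours thus moved alike and were near the lower limit of the list in replicate 1. The region from 8699651 to 8700213, the 1 of the 5 that lay in a cluster, had densities of 22.4 and 40.3. The region from 16110646 to 16112006, at 1361 bp longer than most on X, had 17.8 and 31.3.

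Hsp90 regions on X lay close together in groups separated by long empty stretches. The gap to the next region had a median of 3481.5 bp, with quartiles of 586.75 and 13700 bp. Of the 1300 gaps, 294 (22.6%) were at most 500 bp and 737 (56.7%, exact 95% binomial interval 53.9 to 59.4%) were at most 5 kb. At the other end, 96 gaps (7.38%) were over 50 kb, and these alone summed to 9.99 Mb, 48.9% of the X sequence examined. With the lower-scoring peaks of each list, those under its median score, left out, the share of gaps up to 5 kb was 42.7%.

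The longest stretches without a shared region held few peaks of either list. The longest ran for 332057 bp from 14142283 to 14474339 and held no peak of replicate 1 and 2 of replicate 2. The next, 249974 bp from 12114217 to 12364190, held none and 1. The third, 238345 bp from 4979438 to 5217782, held none and 4. In these stretches Hsp90 was thus listed by replicate 2 alone. Whether gaps in the assembled sequence fall in these stretches was not tested.

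Runs of at least 3 regions with every gap at most 5 kb were counted as clusters, and X held 152 of them. They contained 747 regions (57.4%) in 1.64 Mb, which is 8.04% of the X sequence examined. The median cluster spanned 8.12 kb. Most were small: 70 had 3 regions, 26 had 4, 14 had 5 and 42 had 6 or more, with 8 of 10 or more. The number depends on what counts as a site, since 93 clusters were left when regions up to 500 bp apart were joined, and 60 when peaks under the median score of their list were left out.

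The richest cluster held 32 Hsp90 regions in 72.4 kb, from 13164191 to 13236583. Its regions covered 75.6% of that span, with a median gap of 216 bp, and held 16224 tags in replicate 1 and 21641 in replicate 2, which is 4.40% and 4.39% of the tags of all X regions. The densities in it had medians of 20.9 and 23.4, a little above those of X, and its folds ran from 2.85 to 8.45 and from 2.47 to 8.02, so it was rich in sites rather than in strong sites. A second large cluster followed it: 16 regions from 13275055 to 13299646 covered 80.5% of 24.6 kb, with median folds of 5.66 and 5.26.

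The other clusters named by their number of regions differed in build. From 7585650 to 7605204, 17 narrow regions with a median length of 588 bp filled 61.7% of 19.6 kb, with median folds of 5.78 and 5.97. From 8771199 to 8804230, 13 regions covered 78.0% of 33.0 kb, among them the 11539 bp region described above, and the median folds were 4.23 and 3.74. From 13629474 to 13657576, 11 regions covered 52.4% of 28.1 kb, with median folds of 5.05 and 5.35. The first of these 3 was thus a string of compact sites. In the second, the broad region had folds of 6.59 and 5.30, above the medians of its cluster, so the low medians belong to its neighbours.

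Standing in a cluster went with length more than with strength. The median length was 857 bp for the 747 regions in clusters, 726 bp for the 479 in neither class and 621 bp for the 75 isolated ones, and the shares longer than 2000 bp were 10.7%, 5.85% and 4%. Median densities in clusters were 19.0 in replicate 1 and 20.4 in replicate 2, and for isolated regions they were 17.7 and 21.4. Median folds were 5.30 and 5.44 in clusters, against 5.05 and 5.79 for isolated regions. For density and fold the replicates thus ordered clustered and isolated regions in opposite ways. Neighbouring regions resembled each other little: across the 1300 neighbouring pairs the Spearman rho was 0.20 for length, 0.10 and 0.09 for density, and 0.03 and 0.04 for the fold.

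**Figure D3:**
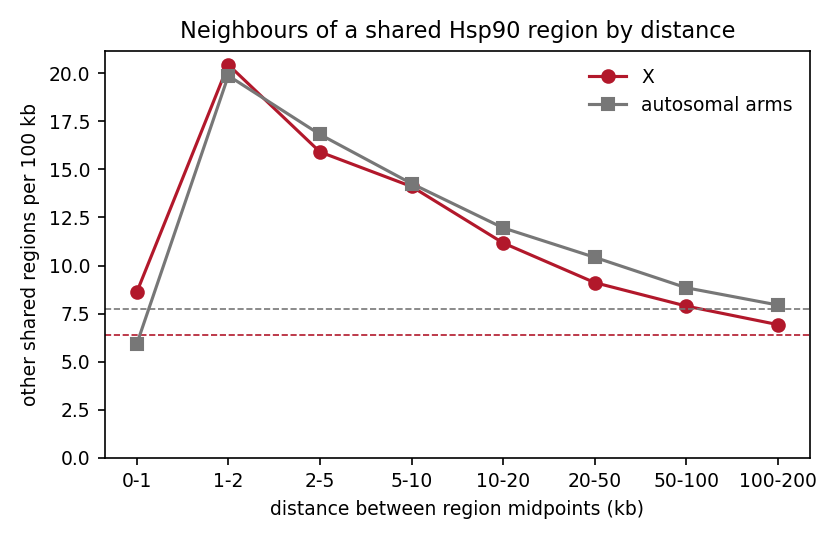
Number of other shared regions per 100 kb (y axis) by distance between region midpoints in kb (x axis), averaged over the regions of X and over those of the autosomal arms, with dashed lines at the mean number per 100 kb of each. On X the number is 20.4 at 1 to 2 kb and 6.93 at 100 to 200 kb, against a mean of 6.37, and on the autosomal arms it is 19.9 and 7.95, against a mean of 7.73.

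Within 1 kb there were fewer neighbours, 8.61 per 100 kb on X and 5.91 on the autosomal arms, because regions have a length of their own and their midpoints cannot come closer than that allows. At 1 to 2 kb the number was 3.21 times the mean of X, and 2.57 times the mean of the autosomal arms. By 50 to 100 kb it was 7.89 on X and 8.84 on the autosomal arms.

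Along X the sites were unevenly spread at the scale of 500 kb. The 40 full windows held a mean of 32.3 ± 15.6 regions (SD, n = 40 windows), with a median of 32.5 and a range from 6 to 74, a 12.3-fold span. The 5 richest windows held 311 regions, 23.9% of the total in 12.2% of the sequence. The profiles of both lists were alike, with a Spearman rho of 0.93 between their peak counts over the 40 windows. Neighbouring windows were only loosely alike, with a rho of 0.19 over 39 pairs. Without the peaks under the median score of their list, the median window held 15 regions.

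The richest window, from 13000001 to 13500000, held 74 regions, 100 peaks of replicate 1 and 94 of replicate 2, and Hsp90 regions covered 19.99% of it. Next came 7500001 to 8000000 with 65 regions, 13500001 to 14000000 with 63, 1500001 to 2000000 with 59, and 2000001 to 2500000 with 50. These 5 form 2 adjoining pairs and 1 window that stands apart. The poorest window, 14000001 to 14500000, followed directly on the first pair: it held 6 regions, which covered 0.771% of it, with 6 peaks of replicate 1 and 13 of replicate 2. The others with few were 1 to 500000 with 10 regions, 5000001 to 5500000 with 12, and 500001 to 1000000 and 4000001 to 4500000 with 16 each. At the tip of X, the first region began after 139740 bp without any.

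The number of sites per window had a wide range, and the window medians of density and fold had a narrow one. Counts and medians are unlike measures, and every region had passed the limit of the peak caller. The 2 ranges therefore do not show whether number or strength varied more. Median densities over the 40 windows ran from 15.2 to 21.1 in replicate 1 and from 16.6 to 24.8 in replicate 2, and median folds from 4.44 to 6.11 and from 4.72 to 6.86. The number of regions in a window had a rho of 0.49 with its median fold in replicate 1 and of -0.07 in replicate 2, so the lists did not share a relation between number and fold. With the median length of the regions the rho was 0.43.

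**Figure D4:**
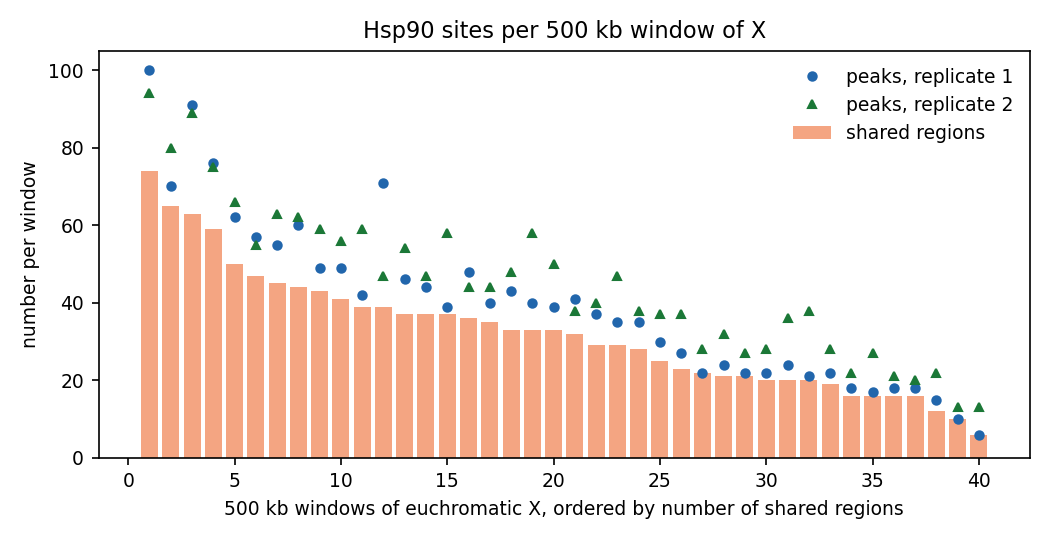
Hsp90 sites in the 40 full 500 kb windows of X, ordered by the number of shared regions (x axis), with that number as bars and the peaks of replicate 1 and replicate 2 as points (y axis, number per window). The bars run from 74 to 6, and 1 window with 39 shared regions has 71 peaks of replicate 1 against 47 of replicate 2.

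Peaks that only 1 replicate listed had lower folds than the rest. On X, 1409 of 1595 peaks of replicate 1 had a partner in replicate 2 (88.3%, exact 95% binomial interval 86.7 to 89.9%), against 88.4% over all peaks of the list and 88.6% on the autosomal arms. Of 1821 peaks of replicate 2, 1422 had one (78.1%, 76.1 to 80.0%), against 76.3% over all peaks and 84.8% on the autosomal arms, where single arms ran from 82.5% to 87.5%. Replicate 2 thus listed 399 X peaks without a partner and replicate 1 listed 186. The unmatched peaks of replicate 1 had a median fold of 3.26, against 5.21 for its matched X peaks, and those of replicate 2 had 4.01, against 5.35.

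In replicate 1 the unmatched peaks were most numerous from 12500001 to 13000000, where 22 of 71 peaks had no partner, against 4 of 47 in replicate 2. Among them were rows of neighbouring peaks, 5 from 12594450 to 12602915 with folds of 2.53 to 4.15 and 8 from 12612292 to 12639080 with folds of 2.74 to 6.68. In these spans replicate 2 listed no peak. The largest, a 6884 bp peak from 12627469 to 12634352, held 5229 tags with a fold of 2.79.

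Both rows lie between the broad regions at 12558908 and 12643936 named above. This stretch, chosen after its values were seen, spans 89.8 kb, or 0.440% of the X sequence examined. Replicate 1 listed 34 peaks in it, 17 without a partner, with 32858 tags or 7.99% of its tags in X peaks, and the peaks covered 77.3% of it. Replicate 2 listed 13 peaks, 1 without a partner, with 22575 tags or 3.95%, covering 38.8%. The 10 shared regions in it had median densities of 29.6 and 28.4, above those of X, median folds of 4.74 and 4.56, below those of X, and a median background index of 6.20 and 6.02. The replicates thus gave the shared regions like values and differed in whether the sequence between them was listed. The lists were made with different settings of the peak caller, and the part of these settings was not tested.

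In replicate 2 the unmatched peaks were spread over X. The full window with most, from 15500001 to 16000000, had 21, against 2 in replicate 1, and the next, from 13500001 to 14000000, had 20, against 19 in replicate 1. From 9000001 to 9500000 there were 19, against 5. Rows of 5 unmatched peaks stood from 13998552 to 14103376, with folds of 3.06 to 5.71, and from 14978956 to 15031696, with folds of 2.94 to 4.90. The first of these rows includes a 5748 bp peak from 14051588 to 14057335 with 3772 tags and a fold of 3.06. It lies in the poorest window of X, so the shared regions understate the tags that replicate 2 had there.

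Set beside the autosomal arms, X had fewer and shorter Hsp90 regions with similar folds over input. There is 1 chromosome X and 1 condition, and arms, windows and regions are not replicates, so the values stand side by side without a test. X held 63.7 shared regions per Mb, against 74.2 on 2L, 89.0 on 2R, 76.3 on 3L and 72.1 on 3R. Its median region was 791 bp long, against 1032, 1006, 920.5 and 1003 bp. Regions covered 6.78% of X and 9.98 to 11.4% of the autosomal arms. The share longer than 2000 bp was 8.53% on X and 12.5 to 15.1% on the autosomal arms.

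Each list showed this by itself. Replicate 1 had 78.1 peaks per Mb on X and 91.8 to 110 on the autosomal arms, and replicate 2 had 89.2 on X and 93.1 to 110. The ratio of X to the pooled autosomal arms was 0.800 and 0.894. Median peak lengths were 688 bp on X, against 796 to 857 bp, in replicate 1, and 549 bp on X, against 655 to 743 bp, in replicate 2. In both measures X lay outside the range of the 4 autosomal arms in both lists, though in replicate 2 the number of peaks was near that of 3R.

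Density was lower on X and the fold was not. Median densities were 18.7 on X and 20.3 over the autosomal arms in replicate 1, and 20.2 and 22.2 in replicate 2, ratios of 0.921 and 0.912. Median folds were 5.21 on both in replicate 1, and 5.44 on X against 5.26 in replicate 2. The background index was 3.65 on X against 4.02 in replicate 1, and 3.79 against 4.28 in replicate 2, ratios of 0.909 and 0.886. Over all peaks of each list, matched or not, the X to autosomal ratio of the median fold was 1.04 in replicate 1 and 0.994 in replicate 2, so its direction was not shared by the lists. The part of the number of X copies in the lower density and index was not tested.

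Compared within length classes up to 5000 bp, the median density was also lower on X in each class and replicate. Among regions over 500 and up to 1000 bp, median densities were 17.7 on X and 18.7 on the autosomal arms in replicate 1, and 19.4 and 21.0 in replicate 2. Over 2000 and up to 5000 bp they were 23.4 on X and 24.3 in replicate 1, and 24.5 and 25.9 in replicate 2. Between these classes, over 1000 and up to 2000 bp, the X and autosomal medians of replicate 1 were nearly alike, 20.9 and 21.0, while those of replicate 2 were 22.0 and 22.8. The folds did not follow 1 direction over these classes. Up to 500 bp the median folds were 4.64 on X against 4.81 in replicate 1, and 4.92 against 5.25 in replicate 2. Over 500 and up to 1000 bp they were 5.05 on X against 4.97, and 5.26 against 5.13, and over 1000 and up to 2000 bp they were 5.70 on X against 5.29, and 5.845 against 5.26. Over 2000 and up to 5000 bp the replicates split, with 5.945 on X against 6.04 in replicate 1 and 5.98 against 5.72 in replicate 2.

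**Figure D5:**
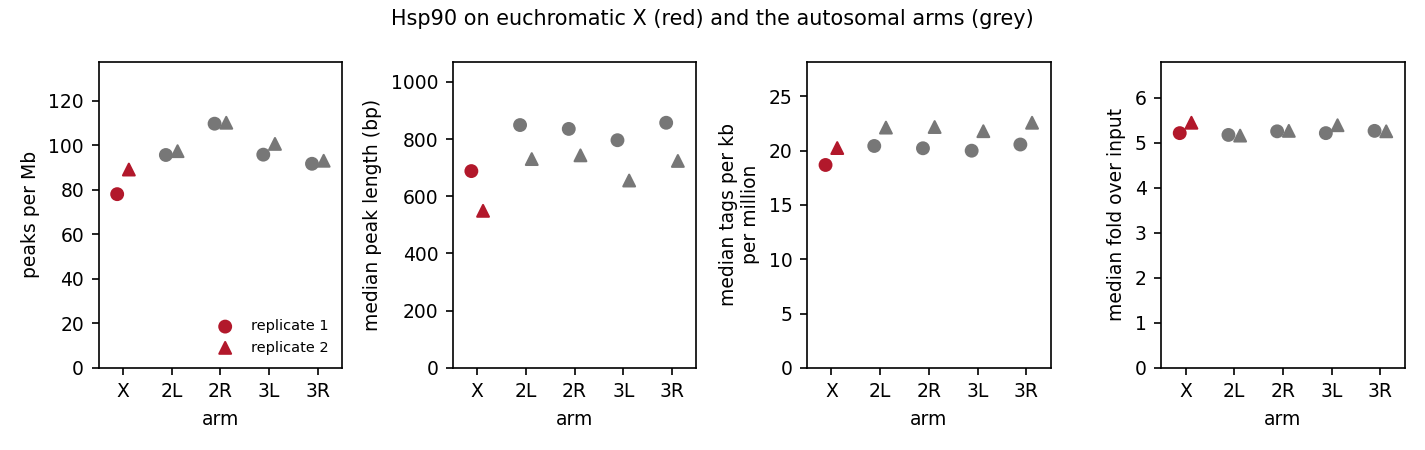
Peaks per Mb, median peak length in bp, median tag density of shared regions in tags per kb per 1000000 unique tags, and median fold over input of shared regions, each on its own y axis from 0, for X and the 4 autosomal arms (x axis), with replicate 1 as circles and replicate 2 as triangles. X lies lowest of the 5 arms in the first 3 panels in both replicates, while its fold lies within 5.17 to 5.26 of the autosomal arms in replicate 1 and above 5.155 to 5.385 in replicate 2.

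Spacing on X was wider, yet its largest cluster held more regions. X had 7.44 clusters per Mb, against 9.94 on the autosomal arms, and 57.4% of its regions lay in one, against 63.8 to 66.6% on the autosomal arms. Its median gap was 3481.5 bp and ran from 2874 to 3293.5 bp on the autosomal arms, and gaps over 50 kb made up 7.38% on X and 5.53% there. Isolated regions were 5.76% of those on X and 3.56% of the autosomal ones. No autosomal cluster held more than 19 regions, against 32 in the richest one on X. This count depends on where the lists split neighbouring signal into regions. With regions up to 500 bp apart joined, the longest spanned 22139 bp on X and 49424 bp on the autosomal arms. The median window of 500 kb held 32.5 regions on X and 37 on the autosomal arms, where 176 windows ran from 3 to 86.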

How the data were processed

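The values are Hsp90 ChIP-seq peak lists of 2 replicates. Reads were aligned with Bowtie to dm3 (BDGP5), per the submitters' processing notes. Per the file headers, MACS called the peaks of each replicate with that replicate's input as control, with 38 bp tags, a 300 bp band width and a p-value limit of 1e-05. The model fold was 6 and the shift d 111 in replicate 1, against 4 and 78 in replicate 2. Deposited per peak are the tag count (whole numbers, not normalized), the authors' fold (a ratio of ChIP over expected input tags), a score deposited by the authors (the negative log10 of the p-value, times 10) and a false discovery rate in percent, per the file headers, with medians on X of 11.7% and 4.77%. Folds and scores are the authors' own values.

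Merging, densities, gaps, clusters and windows were computed in Python 3.11.15 with pandas 2.3.3, numpy 2.4.6 and scipy 1.17.1, tested on simulated lists, and drawn with matplotlib 3.10.9. A region belonged to the window of its midpoint. The last window, of 422.827 kb with 10 regions, was left out of window summaries. Unique tags, from the headers, were the denominator. No test was run.

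The X regions and lists were chosen with earlier results of these data known. Named by rule were the 10 regions highest in mean percentile of density, the 5 longest, the 5 highest in fold, the 5 clusters with most regions, the 5 windows with most and the 5 with fewest, the 3 longest gaps, the 5 largest density ratios, and rows of at least 5 unmatched peaks. The alternatives tried were 50% overlap, peaks under the median score left out, 4 Mb left out, each replicate alone, other cluster gaps, grids and denominators. A limit on the false discovery rate was not tried. Gene positions and sequence of dm3 were not used.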

Additional observations from a re-analysis of the deposited data

How the results depend on the processing

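Leaving out peaks under the median score of their list gave 633 regions (main value 1301), a median length of 1005 bp (791 bp), a median density of 23.4 (19.5, the mean of both replicates), 42.7% of gaps up to 5 kb (56.7%), 60 clusters (152) and a median of 15 regions per window (32.5). Joining regions up to 500 bp apart, chosen after seeing the data, gave 44.0% of gaps, 93 clusters, 24.5 regions per window and an X to autosomal length ratio of 0.759 (0.800). Requiring 50% overlap gave 53.4% of gaps, and total tags as denominator a density of 14.0. With each replicate's peaks alone the length was 549 to 688 bp, the density 18.2 to 18.8, the gaps 63.7 to 64.8%, the windows 39 to 44, and the X to autosomal ratio of regions per Mb 0.800 to 0.894 (0.824). The ratio of the median fold was 0.994 to 1.04 (1.02), so it reversed in the list of replicate 2. The causes were not tested, except that fewer peaks leave fewer regions. The X to autosomal density ratio (0.916) was 0.911 to 0.923 under the alternatives run for it with both replicates. These moved it by less than the spread between replicates (0.0303). That spread is set by the ratios of replicate 2 alone, 0.892, and of replicate 1 alone, 0.935, so it cannot judge those. No paired analysis was possible because no test was made and no processed input file was analysed here. Depth limits the weakest sites, which rest on 53 and 77 tags.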
